A study of Mus musculus with 45 samples.

Results

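The MHC class I genes examined here were 6 genes picked by name: the heavy chain genes H2-K1, H2-D1, H2-Q4 and H2-T23, the light chain gene B2m, and Nlrc5. They were found among 37991 genes by matching their symbols to the Ensembl identifiers of the count table, and all 6 passed the filter on low counts. Counts were available for 45 poly(A) RNA libraries from primary mouse embryonic fibroblasts (MEFs) of strain C57BL/6. Of these, 30 came from p53-deficient cells (p53KO, titled KO-1 and KO-2, read here as lines) and 15 from WT littermate cells (read as 1 line). All cells, WT included, had been starved of serum overnight. Except at 0 h, they then received 10 ng/ml of IL-1b, 10 ng/ml of TNF or LPS at 100 ng/ml. RNA was taken at 0, 0.5, 1, 3 and 8 h. Each stimulus and time thus had 2 p53KO libraries and 1 WT library. The series' text calls KO-1 and KO-2 biological replicates without naming separate embryos, so p-values measure the spread between these samples, and the WT line has no replicate. Loss of p53 was used to lengthen the life of the cultures, and WT cells served to ask whether inflammatory genes are induced alike with and without it.

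MHC class I molecules show peptides from inside the cell to CD8 T cells and are found on nearly all nucleated cells. A heavy chain, encoded in mouse by H2 genes, pairs with beta-2 microglobulin, the product of B2m. H2-K1 and H2-D1 encode classical heavy chains. H2-Q4 and H2-T23 encode non-classical ones, and the H2-T23 product, Qa-1, is a ligand of the NKG2A receptor of NK cells. Nlrc5 encodes an NLR protein that acts in the nucleus as a transactivator of class I genes, by way of the promoter module (X and Y boxes) that factors of the RFX, CREB/ATF and NF-Y families bind. Class I promoters also carry sites for NF-kB and for interferon regulatory factors. LPS acts through TLR4, which leads to both NF-kB and type I interferon, while IL-1b and TNF act mainly through NF-kB and MAP kinases.

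Gene counts per library were between 5619870 and 15355994, with a median of 9347770. Trp53, the deleted gene, had 50.9 to 86.6 CPM (counts scaled to the size of the library) in the p53KO libraries and 158 to 293 CPM in the WT libraries, with no overlap. Summed fibroblast markers lay between 30570 and 40128 CPM over all libraries. All 10 leukocyte and macrophage markers were detected, with a sum of 272 to 600.2 CPM. Lyz2 alone, a lysozyme gene of myeloid cells, had 143 to 415 CPM, and Ptprc, the pan-leukocyte gene CD45, 5.16 to 18.7 CPM. T, B and NK cell markers summed to at most 0.685 CPM, and 4 of 8 were at 0 in all 45 libraries. The deviation of a library from the mean of its line correlated with transcript length across 9643 genes most strongly in KO-2 at 0.5 h of IL-1b (Spearman's rho −0.6). In KO-1 at 0.5 h of IL-1b rho was −0.416, within the −0.492 to 0.405 of the other 43 libraries. In bulk RNA, more cells of a type and more RNA per cell cannot be told apart.

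The 4 heavy chain genes lie on chromosome 17, B2m on chromosome 2 and Nlrc5 on chromosome 8. In the mm9 coordinates of the count table H2-K1 spans 34132962 to 34137278 (minus strand), H2-D1 35399675 to 35404444 (plus), H2-Q4 35516562 to 35522235 (plus) and H2-T23 36166718 to 36169800 (minus). B2m spans 121973422 to 121978819 and Nlrc5 96996663 to 97051172, both on the plus strand. Heavy chain genes resemble each other, and 18.8 to 23.6% of the counts of a library fell in alignments that were not unique. Of the distinct 50-base words in the GENCODE M21 transcripts of each gene, 36.4% were shared with another gene for H2-Q4, 14.5% for H2-T23, 12.8% for H2-D1 and 9.63% for H2-K1. The share was 0.338% for Nlrc5 and 0 for B2m. By shared sequence alone, the level of H2-Q4 is the least certain of the 6. The kit marks strand, but the strand setting of the counting was not given, and H2-Q4 overlaps the antisense gene Gm11131, which had 174 counts over all 45 libraries.

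RefSeq promoter windows (GRCm38.p6) were at hand for 5 of the 6 genes, Nlrc5 being the other. The 190 bases before the start of each are shown because H2-K1, H2-D1 and H2-Q4 share a spaced pair of elements for NF-kB and interferon regulatory factors. Capitals mark matches on either strand to letters for NF-kB (GGGNN directly followed by TTNCC), for interferon regulatory factors (GAANNGAAA, or a full repeat of GAAANN directly followed by GAAA), for the X2 box core (TGACG) and for the Y box core (CCAAT).
H2-K1, chr17:34000334-34000523, minus strand: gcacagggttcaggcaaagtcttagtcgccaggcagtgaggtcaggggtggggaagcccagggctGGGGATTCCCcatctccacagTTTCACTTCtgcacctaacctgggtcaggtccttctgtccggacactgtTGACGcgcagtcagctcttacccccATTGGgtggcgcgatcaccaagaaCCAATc
H2-D1, chr17:35262904-35263093, plus strand: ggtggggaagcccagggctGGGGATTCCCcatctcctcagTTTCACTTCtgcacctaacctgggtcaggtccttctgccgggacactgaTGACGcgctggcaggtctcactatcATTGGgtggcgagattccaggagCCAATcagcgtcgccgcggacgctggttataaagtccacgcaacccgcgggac
H2-Q4, chr17:35379427-35379616, plus strand: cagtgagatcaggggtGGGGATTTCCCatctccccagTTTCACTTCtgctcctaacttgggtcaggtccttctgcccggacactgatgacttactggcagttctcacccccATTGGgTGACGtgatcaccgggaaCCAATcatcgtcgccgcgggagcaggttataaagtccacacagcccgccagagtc
H2-T23, chr17:36032702-36032891, minus strand: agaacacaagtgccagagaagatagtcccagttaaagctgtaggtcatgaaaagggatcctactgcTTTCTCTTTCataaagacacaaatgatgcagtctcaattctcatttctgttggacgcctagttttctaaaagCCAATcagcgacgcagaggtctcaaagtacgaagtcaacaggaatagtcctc
B2m, chr2:122147497-122147686, plus strand: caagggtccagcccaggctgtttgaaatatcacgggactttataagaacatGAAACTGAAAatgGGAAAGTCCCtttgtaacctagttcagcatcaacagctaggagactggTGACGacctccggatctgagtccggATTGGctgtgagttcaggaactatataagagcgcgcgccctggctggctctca

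In H2-K1, H2-D1 and H2-Q4 an NF-kB match was followed by an interferon match on the opposite strand, with 21 bases between their starts. H2-Q4 held 2 NF-kB matches that overlap. The X2 core letters did not match at the same place in the 3 genes. Counted from the annotated start, the X2 core match began at −55 in H2-K1 (from the second of its starts) and −101 in H2-D1, before the first Y core match at −30 and −76. In H2-Q4 the corresponding stretch before the first Y core match (at −79) reads tgact in place of TGACG. Its TGACG match before the start began at −73, after that Y core match. Whether either stretch acts as an X2 box was not tested. Of 32851 promoter windows of 300 bases, 4.79% held the NF-kB letters, 7.52% GAANNGAAA, 3.44% the full repeat, 20.8% TGACG and 37.4% CCAAT. NF-kB and GAANNGAAA occurred together in 0.417% of windows. The pair at that distance was found in 5 windows of 4 genes, which were H2-K1, H2-D1, H2-Q4 and H2-Q6. B2m held the full repeat and NF-kB, TGACG and CCAAT matches, while H2-T23 held the full repeat and CCAAT. A search for the GAS letters TTCNNNGAA, held by 8.3% of windows, matched none of the 5 genes. Aligned pairwise, the windows of H2-K1 and H2-D1 were identical at 88.3% of 239 bases, those of H2-K1 and H2-Q4 at 85.2% of 230 and those of H2-D1 and H2-Q4 at 83.1% of 284. A promoter that matches so closely is not an independent example, and the letters searched were chosen with these promoters in view.

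Before stimulation the light chain gene was the most abundant and Nlrc5 the least. Per kilobase of annotated exon, the mean p53KO levels at 0 h over the 3 series were 313 to 341 CPM for B2m, 21.0 to 22.1 for H2-D1, 15.5 to 15.9 for H2-K1, 4.30 to 4.78 for H2-Q4, 2.18 to 2.55 for H2-T23 and 0.120 to 0.141 for Nlrc5. The ranges of these means did not overlap between neighbours in this order. The order of H2-D1 and H2-K1 depends on the exon lengths used, 2579 and 2938 bases. With their longest coding transcripts, of 2102 and 1619 bases, it would be reversed. Nlrc5 rested on 8 to 15 counts per p53KO library and 8 to 12 per WT library at 0 h, so small changes in it were not detectable at this depth.

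LPS raised all 6 genes in p53KO cells at 3 and 8 h. H2-K1 had 112 CPM in KO-1 and 109.8 CPM in KO-2 at 3 h and 316 and 387 CPM at 8 h, against 47.0 and 45.3 CPM at 0 h. H2-D1 had 151 and 130.3 CPM at 3 h and 349 and 374 CPM at 8 h, against 57.8 and 56.4 CPM at 0 h. The classical heavy chains thus stood above their 0 h level in both lines at 3 h and higher again at 8 h. Among the non-classical ones, H2-Q4 had 51.7 and 46.9 CPM at 3 h and 210.2 and 227 CPM at 8 h, against 11.6 and 13.2 CPM at 0 h. H2-T23 had 17.4 and 15.5 CPM at 3 h and 54.5 and 53.9 CPM at 8 h, against 6.51 and 6.07 CPM at 0 h. Among 0, 3 and 8 h, times did not overlap for either gene. B2m, which serves every heavy chain, had 547 and 524 CPM at 3 h and 1019.9 and 1051 CPM at 8 h, against 288 and 298 CPM at 0 h. Nlrc5 had 4.49 and 5.40 CPM at 3 h and 35.6 and 39.7 CPM at 8 h, against 0.958 and 1.26 CPM at 0 h.

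**Figure D1:**
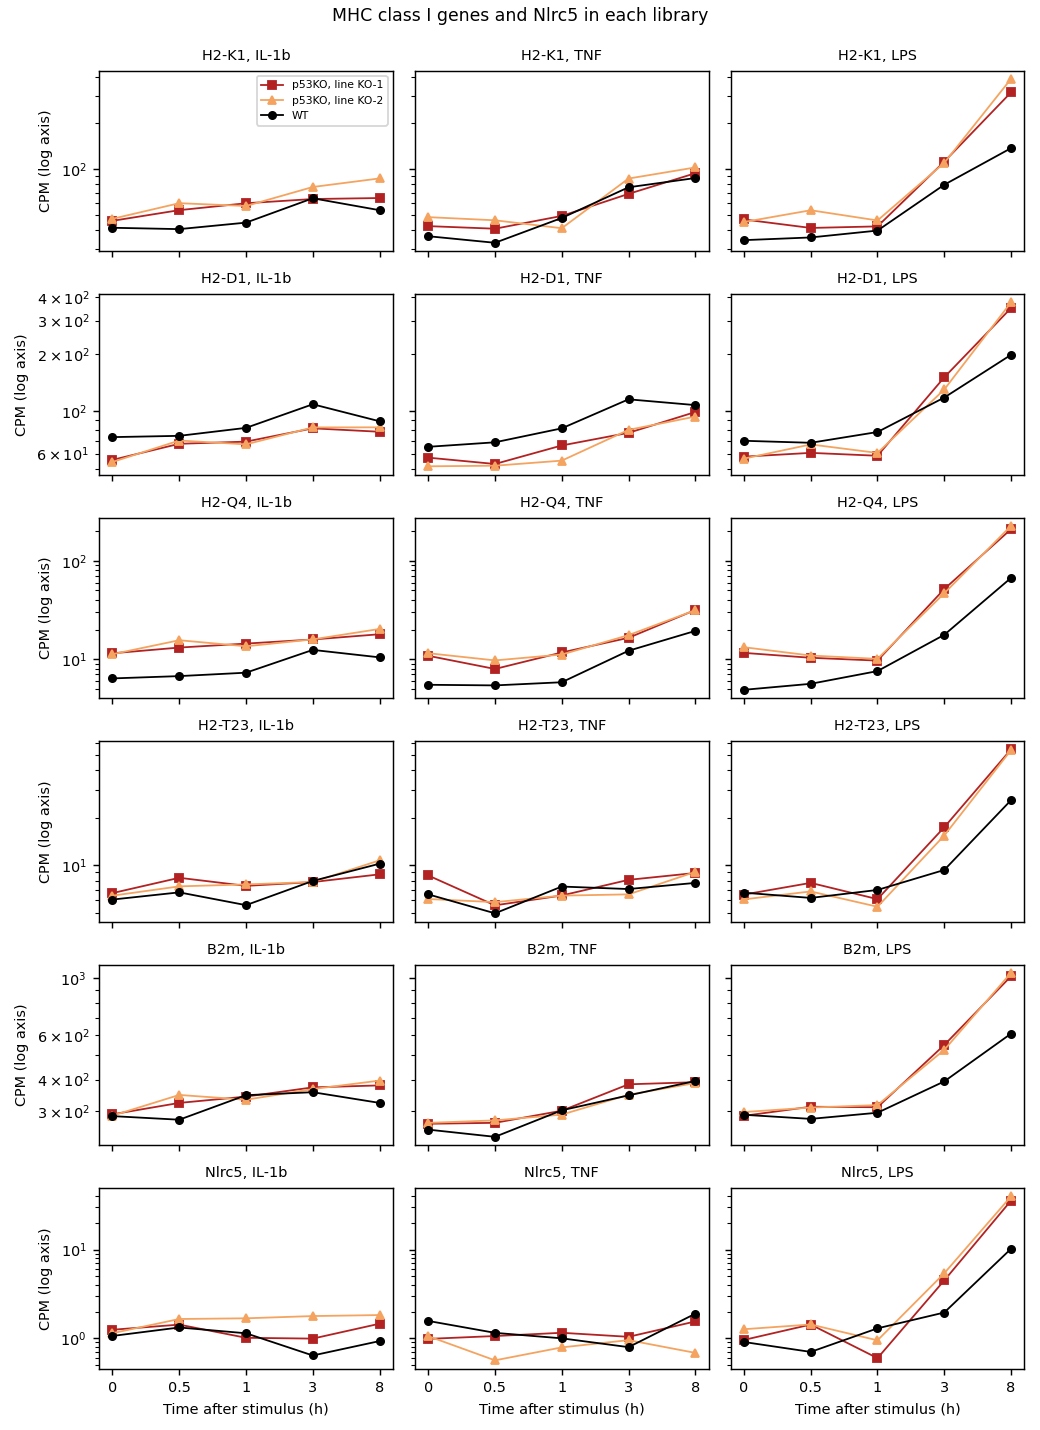
CPM on a log axis against time in hours for each gene (rows) and stimulus (columns), with 1 point per library: red squares KO-1, orange triangles KO-2, black circles WT. After LPS the p53KO points rise between 1 and 8 h for all 6 genes, with B2m at 1019.9 and 1051 CPM and Nlrc5 at 35.6 and 39.7 CPM at 8 h, while after IL-1b and TNF Nlrc5 stays at or below 1.89 CPM.

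At 8 h of LPS, edgeR's quasi-likelihood test with Benjamini-Hochberg adjustment over 13851 genes called 6 of 6 genes higher, where 17% of all genes were called higher. The log2 changes were 5.06 for Nlrc5 (SE 0.24, adjusted p 3.73e-15), 4.13 for H2-Q4 (SE 0.10), 3.11 for H2-T23 (SE 0.13), 2.93 for H2-K1 (SE 0.14), 2.66 for H2-D1 (SE 0.08) and 1.82 for B2m (SE 0.06). By size of rise, Nlrc5 ranked 99 and B2m 441 among the 13851 genes, with the other 4 between. At 3 h 6 of 6 were also called higher (21.9% of all genes), with log2 changes of 2.13 for Nlrc5, 1.98 for H2-Q4, 1.39 for H2-T23, 1.30 for H2-D1, 1.26 for H2-K1 and 0.87 for B2m. Between 3 and 8 h 6 of 6 rose further (20.2% of all genes), by 0.95 (B2m) to 2.92 (Nlrc5) on the log2 scale. None was called at 0.5 h (0.433% of all genes higher, 0.0939% lower) or at 1 h (2.79% higher, 2.52% lower). At 1 h H2-Q4 had 9.67 and 10.07 CPM, against 11.6 and 13.2 CPM at 0 h, a log2 change of −0.33 with a 95% interval of −0.60 to −0.07 and an edgeR adjusted p of 0.166. Leukocyte and macrophage markers summed to 355 and 453 CPM in p53KO cells at 8 h of LPS, against 301 to 374 CPM in the 6 p53KO libraries at 0 h. Of the 10, Fcgr1, Adgre1, Itgam and Ptprc rose at 8 h of LPS (log2 1.92, 1.29, 0.82 and 0.82) while Laptm5 and Cd68 fell by 0.89 and 0.77 on the log2 scale. Of 4 endothelial markers Cdh5, which encodes VE-cadherin, was called higher (log2 4.28), from 4 counts in both 0 h libraries together. Of 10 fibroblast markers Lum, Dcn and Pdgfra were higher (log2 1.67, 0.79 and 0.64) and Thy1 fell by 0.21 on the log2 scale. The part of these markers in the result was not tested.

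IL-1b raised the heavy chains and B2m by less than 2-fold and left Nlrc5 uncalled at every time. H2-K1 had 63.9 and 76.5 CPM at 3 h and 64.8 and 87.0 CPM at 8 h, against 46.1 and 47.5 CPM at 0 h. H2-Q4 had 15.9 and 15.9 CPM at 3 h and 17.9 and 20.3 CPM at 8 h, against 11.5 and 11.2 CPM at 0 h. In both genes each stimulated library lay above both 0 h libraries. At 3 h 4 of 6 were called higher (21% of all genes), namely H2-K1 (log2 0.58), H2-D1 (0.58), H2-Q4 (0.48) and B2m (0.35). At 8 h 5 of 6 were called higher (12.5% of all genes), with log2 changes of 0.75 for H2-Q4, 0.70 for H2-K1, 0.58 for H2-T23, 0.55 for H2-D1 and 0.42 for B2m. Without KO-2 at 8 h the call for H2-T23 was lost (log2 0.42, edgeR adjusted p 0.123), as it was without KO-2 at 0 h (log2 0.55, adjusted p 0.0526). Nlrc5 had 1.46 and 1.83 CPM at 8 h, against 1.25 and 1.14 CPM at 0 h, a log2 change of 0.45 with a 95% interval of −0.29 to 1.19. Between 3 and 8 h of IL-1b edgeR called 0 of 6 higher (18.5% of all genes) and 0 lower (17%), with an unadjusted p of 0.0258 for H2-Q4 as the smallest of the 6, and 1 was called without KO-1 at 8 h.

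Small early rises after IL-1b were called for H2-D1 and B2m. H2-D1 had 67.5 and 70.2 CPM at 0.5 h and 69.3 and 67.1 CPM at 1 h, against 55.6 and 54.2 CPM at 0 h. B2m had 324 and 348 CPM at 0.5 h and 343 and 333 CPM at 1 h, against 292 and 288 CPM at 0 h. Both genes were called at 0.5 h (2.64% of all genes higher) and at 1 h (2.78%), with log2 changes of 0.21 to 0.33. At 0.5 h 617 of all genes were higher with the line as a block, and 365 without it. H2-Q4 had a log2 change of 0.34 at 0.5 h and was not called (edgeR adjusted p 0.067). The calls for H2-D1 and B2m were fragile: 0 of 6 remained at 0.5 h without either 0 h library or without KO-2 at 0.5 h, and 0 of 6 at 1 h without any 1 of the 4 libraries compared. The part of the transcript length trend of KO-2 at 0.5 h (rho −0.6) was not tested.

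TNF raised H2-Q4, H2-K1, H2-D1 and B2m, and neither H2-T23 nor Nlrc5 was called. H2-Q4 had 16.5 and 17.6 CPM at 3 h and 31.6 and 31.5 CPM at 8 h, against 10.8 and 11.5 CPM at 0 h. H2-K1 had 69.0 and 86.8 CPM at 3 h and 94.0 and 103 CPM at 8 h, against 42.6 and 48.7 CPM at 0 h. Among 0, 3 and 8 h, each time lay above the one before in both lines. At 8 h 4 of 6 were called higher (14.5% of all genes), with log2 changes of 1.499 for H2-Q4 (SE 0.11), 1.10 for H2-K1 (SE 0.14), 0.84 for H2-D1 (SE 0.09) and 0.53 for B2m (SE 0.06). The same 4 were called at 3 h (18.4% of all genes), at 0.77 for H2-K1, 0.61 for H2-Q4, 0.53 for H2-D1 and 0.44 for B2m. Between 3 and 8 h H2-Q4 (0.89) and H2-D1 (0.30) rose further (12.3% of all genes), and H2-D1 lost its call without KO-1 at 3 h (log2 0.28, edgeR adjusted p 0.0765) or at 8 h (log2 0.26, adjusted p 0.118). H2-T23 had 8.93 and 9.07 CPM at 8 h, against 8.61 and 6.10 CPM at 0 h, so the 0 h library of KO-1 lay close to both 8 h libraries. Its log2 change was 0.29 with a 95% interval of −0.04 to 0.62 and an edgeR adjusted p of 0.186. Against the 6 p53KO libraries at 0 h taken as 1 baseline it was called (log2 0.43, edgeR adjusted p 0.00805). Nlrc5 had 1.55 and 0.685 CPM at 8 h, against 0.984 and 1.06 CPM at 0 h, so that its groups overlapped (log2 0.32, 95% interval −0.55 to 1.18). None was called at 0.5 h of TNF (0.606% of all genes higher, 0.144% lower) or at 1 h (3.05% higher, 2.8% lower).

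**Figure D2:**
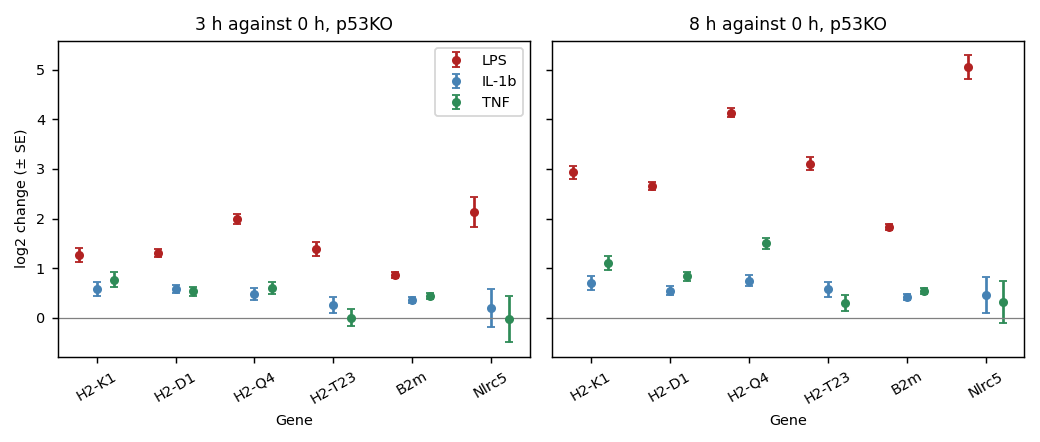
Log2 change (± SE) from the edgeR fit in p53KO cells at 3 h (left) and 8 h (right) against 0 h, for LPS (red), IL-1b (blue) and TNF (green), from 2 libraries per group. At 8 h LPS stands above both cytokines for every gene, and the distance is widest for Nlrc5, at 5.06 after LPS, 0.45 after IL-1b and 0.32 after TNF.

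The 3 stimuli were compared directly in p53KO cells, each relative to its own 0 h libraries, with an F test over the 4 later times. LPS differed from TNF for 6 of 6 genes (5.14% of all genes) and from IL-1b for 6 of 6 (6.91%). At 8 h the change after LPS exceeded that after TNF in all 6 (3.47% of all genes), by 4.74 for Nlrc5 (95% interval 3.58 to 5.89), 2.81 for H2-T23, 2.63 for H2-Q4, 1.83 for H2-K1, 1.83 for H2-D1 and 1.29 for B2m on the log2 scale. It exceeded that after IL-1b in all 6 as well (3.43% of all genes), by 4.60 for Nlrc5, 3.38 for H2-Q4, 2.53 for H2-T23, 2.23 for H2-K1, 2.12 for H2-D1 and 1.40 for B2m. Because these comparisons use the same LPS libraries, they are not independent. At 3 h 5 of 6 were higher after LPS in each comparison (1.63% of all genes against TNF, 1.41% against IL-1b). H2-K1 was the exception, with 0.50 against TNF (edgeR adjusted p 0.406) and 0.68 against IL-1b (adjusted p 0.104). IL-1b differed from TNF for H2-Q4 and H2-D1 (1.42% of all genes). H2-K1 was not called (edgeR adjusted p 0.106), but was with the line as a block (adjusted p 0.00743) and without the filter on low counts (1.91e-06). With the block 477 of all genes were called for IL-1b against TNF, and 197 without it. The direction was tested at 8 h, with H2-Q4 lower after IL-1b at 8 h by a log2 difference of −0.75 (edgeR adjusted p 0.027, with 0.267% of all genes lower). The H2-D1 call was lost without KO-1 at 8 h of IL-1b (adjusted p 0.0717), KO-2 at 8 h of IL-1b (0.0507), KO-2 at 0.5 h of IL-1b (0.0991), KO-1 at 8 h of TNF (0.122), or at 0.5 h of TNF without KO-1 (0.0689) or KO-2 (0.105). For H2-T23 the difference at 8 h, IL-1b minus TNF, was 0.28 with an interval of −0.17 to 0.74.

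In WT cells the highest level of each of the 6 genes was also that at 8 h of LPS. Each WT group had 1 library, and changes within WT cells were not tested. At 8 h of LPS all 6 genes lay more than 2-fold above the 0 h library (5.65% of all genes did), with a median log2 change of 1.95. At 8 h of TNF 2 of 6 lay more than 2-fold above it (4.69%), namely H2-Q4 and H2-K1, and at 8 h of IL-1b 0 of 6 (3.74%). With TNF, Nlrc5 had 1.89 CPM at 8 h, against 1.57 CPM at 0 h. With IL-1b it had 0.930 CPM, against 1.06 CPM.

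After LPS the 6 genes reached higher levels in p53KO cells than in WT cells. At 8 h H2-K1 had 316 and 387 CPM in p53KO cells and 137 CPM in WT cells, and H2-D1 349 and 374 CPM in p53KO cells and 198 CPM in WT cells. H2-Q4 had 210.2 and 227 CPM in p53KO cells and 67.1 CPM in WT cells, and H2-T23 54.5 and 53.9 CPM in p53KO cells and 25.9 CPM in WT cells. B2m had 1019.9 and 1051 CPM in p53KO cells and 606 CPM in WT cells, and Nlrc5 35.6 and 39.7 CPM in p53KO cells and 10.197 CPM in WT cells. The WT library lay below both p53KO libraries in each case. In counts, Nlrc5 had 339 and 408 in p53KO cells and 96 in the WT library.

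The change after LPS, tested as the difference between genotypes over the 4 later times with WT assumed to vary like p53KO, differed for 5 of 6 genes, against 2.66% of all genes. The edgeR adjusted p was 9.93e-06 for H2-D1, 0.000149 for B2m, 0.0021 for H2-Q4, 0.00365 for H2-T23, 0.0188 for H2-K1 and 0.0594 for Nlrc5, which was not called. Nlrc5 was called with the line as a block (edgeR adjusted p 0.0245) and without the filter on low counts (0.0108). Of all genes 710 were called with the block, and 368 without it. At 8 h alone the log2 change in p53KO cells exceeded that in WT cells by 1.16 for H2-D1 (95% interval 0.87 to 1.45), 1.16 for H2-T23 (0.64 to 1.67) and 0.76 for B2m (0.55 to 0.98), all 3 called, where 0.708% of all genes were called higher. The difference was 0.94 for H2-K1 (0.44 to 1.45), 1.58 for Nlrc5 (0.28 to 2.89) and 0.36 for H2-Q4 (−0.11 to 0.82), none of them called. H2-K1 at 8 h (edgeR adjusted p 0.0716) was called with the line as a block (0.00744) and without the filter (4.82e-05). At 3 h alone B2m was called (0.43, edgeR adjusted p 0.0442, 0.585% of all genes higher). H2-Q4 was called over the 4 times without a call at any single one, and its difference lay at −0.97 at 1 h and 0.36 at 8 h. Without KO-2 at 8 h of LPS the call for H2-K1 over the 4 times was lost (adjusted p 0.102). For IL-1b and TNF edgeR called 0 of 6 genes (5.74% and 0.462% of all genes), with unadjusted p under 0.05 for H2-Q4 (0.0252) and B2m (0.015) after IL-1b and for none after TNF. With the block 1360 of all genes were called after IL-1b and 174 after TNF, and without it 795 and 64. The intervals at 8 h of TNF were −0.69 to 0.37 for H2-K1 and −1.35 to 1.45 for Nlrc5. Leukocyte and macrophage markers summed to 355 and 453 CPM in p53KO cells and 494 CPM in WT cells at 8 h of LPS.

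**Figure D3:**
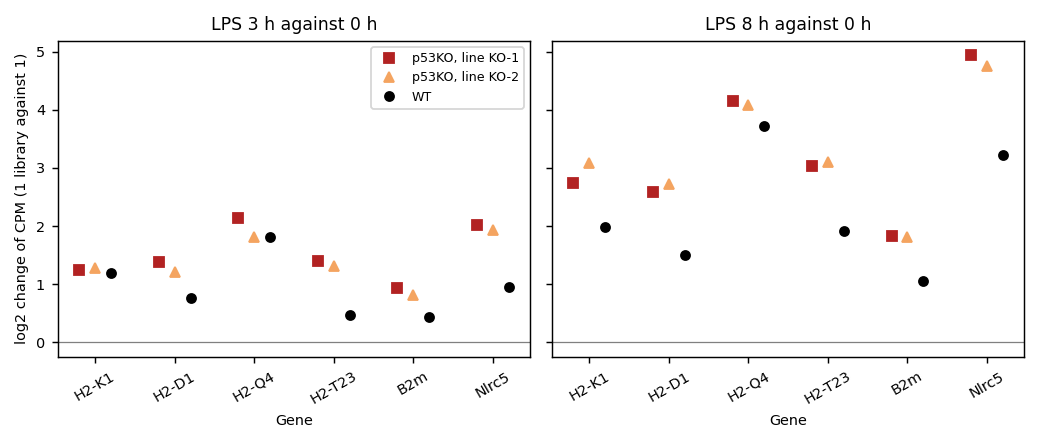
Log2 change of CPM (prior count 2) at 3 h and 8 h of LPS against the 0 h library of the same line, 1 point per line: red squares KO-1, orange triangles KO-2, black circles WT. At 8 h the WT point lies below both p53KO points for each gene, with 2.59 and 2.72 in p53KO cells and 1.499 in WT cells for H2-D1, and 4.16 and 4.08 in p53KO cells and 3.73 in WT cells for H2-Q4.

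Genotypes already differed before stimulation for 3 of the heavy chains. H2-Q4 lay between 10.8 and 13.2 CPM (median 11.5) in the 6 p53KO libraries at 0 h and at 4.88, 5.49 and 6.37 CPM in the 3 WT libraries. H2-K1 lay between 42.6 and 48.7 CPM (median 46.6) in p53KO cells and at 34.5, 36.6 and 41.5 CPM in WT cells. H2-D1 went the other way, with 51.4 to 57.8 CPM (median 55.98) in p53KO cells and 65.1, 70.0 and 73.2 CPM in WT cells. The genotypes did not overlap for these 3 genes. They overlapped for B2m (268 to 298 CPM in p53KO cells, 254 to 291 in WT cells), H2-T23 (6.07 to 8.61 and 6.05 to 6.69 CPM) and Nlrc5 (0.958 to 1.26 and 0.908 to 1.57 CPM).

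On the 9 libraries at 0 h, edgeR gave log2 differences of 1.06 for H2-Q4 (SE 0.12, adjusted p 8.12e-07) and 0.29 for H2-K1 (SE 0.07, adjusted p 0.00161), both higher in p53KO cells (21.5% of all genes), and −0.33 for H2-D1 (SE 0.06, adjusted p 0.000104), lower in p53KO cells (21.1%). The 3 libraries of a line were read as sharing their cells, and on that reading these p-values are too small. Nlrc5 (−0.05), H2-T23 (0.05) and B2m (0.03) were not called at 0 h. Markers of other cell types also differed at 0 h. Leukocyte and macrophage markers summed to 301 to 374 CPM in p53KO cells and 405 to 424 CPM in WT cells, and epithelial markers to 25.8 to 28.9 CPM in p53KO cells and 6.24 to 7.12 CPM in WT cells. Their part in the result was not tested, and genotype cannot be told apart from the single WT line.

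**Figure D4:**
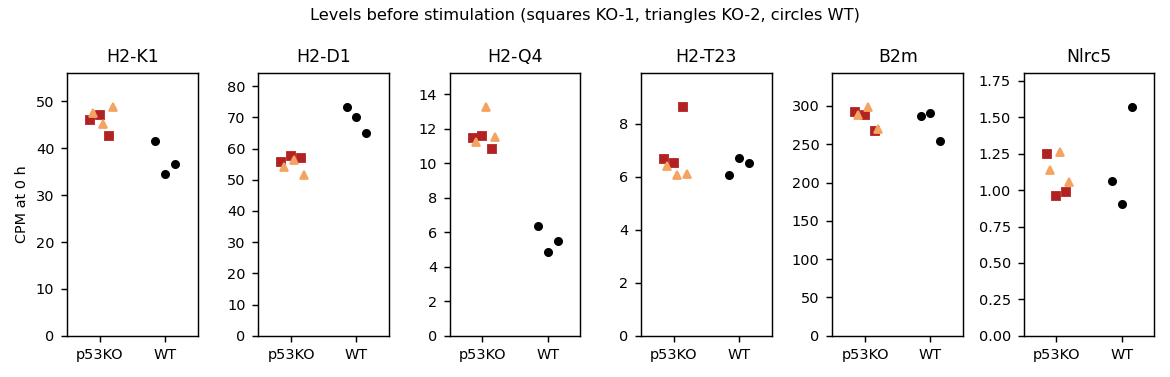
CPM at 0 h on linear axes from 0 for each gene, with p53KO libraries left (red squares KO-1, orange triangles KO-2) and WT libraries right (black circles), in the order IL-1b, LPS and TNF series within each group. H2-Q4 and H2-K1 lie higher in all 6 p53KO libraries, H2-D1 lies lower in them, and the other 3 genes overlap.

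Over all times together, stimulated libraries included, the 15 libraries of a line were also added up into 1 value, giving 2 p53KO lines and 1 WT line. By edgeR 5 of 6 were called higher in p53KO cells (21.1% of all 12918 genes), at log2 differences of 1.16 for H2-Q4, 1.08 for Nlrc5, 0.47 for H2-K1, 0.35 for H2-T23 and 0.19 for B2m. H2-D1 was not called (−0.07, SE 0.05), and 0 of 6 were called lower (19.2% of all genes). These sums hold the LPS libraries and so are not levels before stimulation, and the WT side is 1 sample.

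The make-up of heavy chain counts differed between genotypes and moved with LPS. Of the counts of the 4 heavy chain genes, not scaled by length, H2-D1 held 43.7 to 47.9% in p53KO cells and 57.2 to 60.3% in WT cells at 0 h. H2-Q4 held 9.09 to 10.9% in p53KO cells and 4.20 to 5.01% in WT cells. At 8 h of LPS the share of H2-Q4 was 21.8 to 22.6% in p53KO cells, against 9.43 to 10.9% at 0 h of that series, and 15.7% in WT cells, against 4.20%. The share of H2-D1 was 35.9 to 37.5% in p53KO cells at 8 h, against 46.6 to 47.0% at 0 h, and 46.3% in WT cells, against 60.3%. H2-K1 (34.0 to 37.1% in p53KO cells at 8 h, against 37.4 to 38.3%) and H2-T23 (5.17 to 5.86%, against 5.02 to 5.30%) kept closer to their 0 h shares. Per kilobase of exon the mean levels in p53KO cells at 8 h were 140.2 CPM for H2-D1, 119.6 for H2-K1, 84.2 for H2-Q4, 18.8 for H2-T23, 4.43 for Nlrc5 and 1204 for B2m.

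Most of the genes that supply and load peptides rose with LPS, while no constitutive proteasome subunit was called at 8 h. Of 16 listed genes for peptide supply and loading 15 were tested, and 12 were higher and 0 lower at 8 h of LPS in p53KO cells, with a median log2 change of 1.67 (−0.02 over all genes). Of all genes tested, 17% were higher and 17.2% lower at that time. Tap1, a subunit of the transporter that brings peptides into the endoplasmic reticulum, averaged 171 ± 8.18 CPM at 8 h and 4.76 ± 1.13 CPM at 0 h (SD, n = 2 each), a log2 change of 5.18. Psmb8, a subunit of the immunoproteasome, averaged 72.4 CPM at 8 h and 3.75 CPM at 0 h (log2 4.28), and Psmb10, another such subunit, 119 and 12.2 CPM (3.29). Tapbp (tapasin), which holds class I molecules at the transporter, averaged 532 and 62.7 CPM (3.08). The general chaperone genes Calr and Canx changed by 0.09 and 0.04 and were not called. At 3 h of LPS 12 of the 15 were also higher (21.9% of all genes), while 4 were at 8 h of TNF (14.5%) and 4 at 8 h of IL-1b (12.5%). Psmb5, Psmb6 and Psmb7, whose products the immunoproteasome subunits replace, had log2 changes of 0.02, 0.05 and 0.04 at 8 h of LPS with SEs of 0.08 to 0.11, and 0 of 3 were called by edgeR, against 1 of 3 higher at 3 h.

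Other class I and class I-like genes were mostly low. Of 30 listed genes 13 were tested, with 8 higher and 1 lower at 8 h of LPS (17% and 17.2% of all genes) and a median log2 change of 3.00, or 2.59 with H2-M2, which had 0 counts at 0 h, set to its bound against a floor of 3 counts. H2-T22, a non-classical heavy chain gene, averaged 251 CPM at 8 h and 26.8 CPM at 0 h (log2 3.23), and H2-M3, whose product presents formylated peptides, 15.3 and 4.73 CPM (1.69). H2-Q6, which shares the spaced promoter elements, averaged 9.16 CPM at 8 h and 0.174 CPM at 0 h, from 4 counts in both 0 h libraries together. H2-T24 averaged 3.99 CPM at 8 h and 0.0958 CPM at 0 h, which was also near the floor (log2 5.28, SE 0.54). Mr1, which presents vitamin metabolites, fell by 0.82 on the log2 scale. Hfe (log2 −0.17), an iron regulator, and Cd1d1 (0.18), which presents lipids, were not called.

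**Figure D5:**
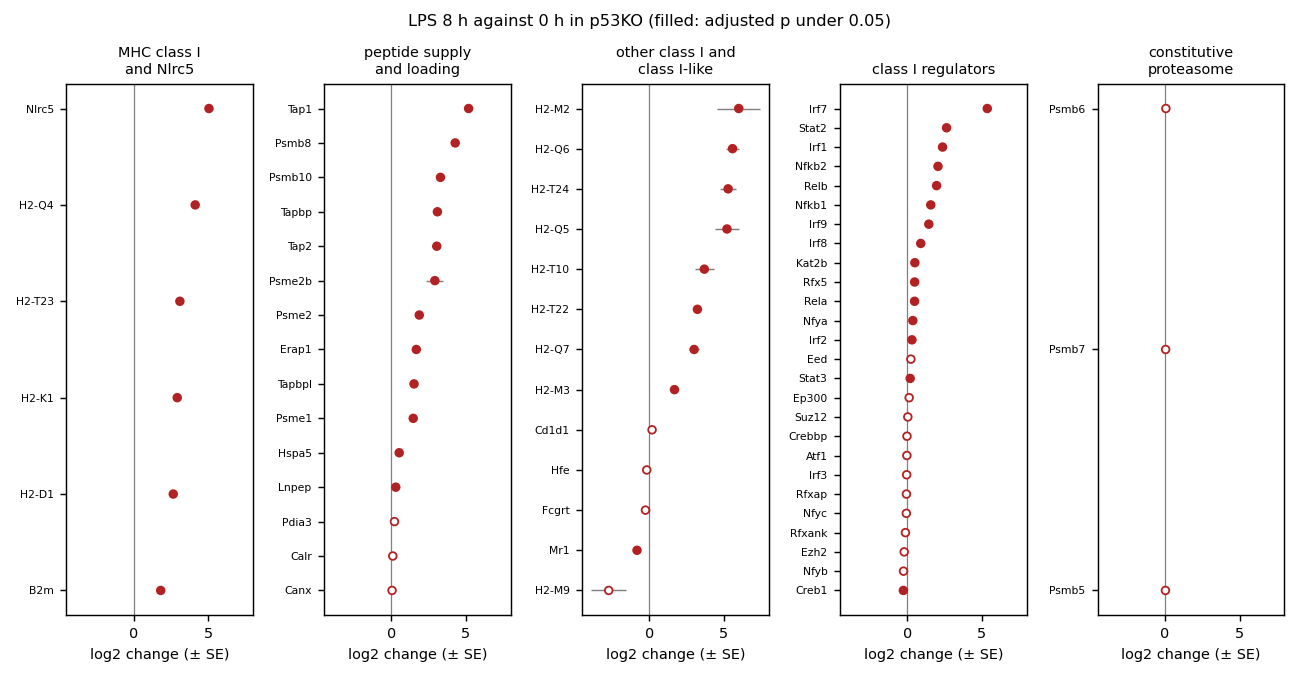
Log2 change (± SE, edgeR, 2 libraries per group) at 8 h of LPS against 0 h in p53KO cells for the genes of 5 lists that passed the filter, except 1 regulator that is not shown, with filled points for an adjusted p under 0.05. Tap1 (5.18), Irf7 (5.37) and Nlrc5 (5.06) lie far to the right, and Psmb5, Psmb6 and Psmb7 lie at 0.02 to 0.05, while the point of H2-M2 is a fitted value against 0 counts at 0 h.

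Of 27 genes for factors known to act on class I promoters, 15 were higher and 1 lower at 8 h of LPS (17% and 17.2% of all genes), with a median log2 change of 0.32. Irf7, an interferon regulatory factor that is itself interferon-induced, averaged 236 CPM at 8 h and 5.72 CPM at 0 h (log2 5.37). Stat2, which carries the type I interferon signal, averaged 275 CPM at 8 h of LPS, against 44.2 CPM before it (log2 2.64). Irf1, which also responds to NF-kB, averaged 126 CPM at 8 h and 229 CPM at 3 h, against 24.4 CPM at 0 h, so its change was 2.37 at 8 h and 3.22 at 3 h. Crebbp and Atf1 (both −0.02) were not called. With TNF, Irf1 rose by 1.43 and Irf7 by 1.36 at 8 h on the log2 scale, and Stat2 was not called (0.34). With IL-1b Irf7 rose by 1.29 and Irf1 by 0.87 at 8 h.

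Of 14 listed genes for interferons, their receptors and receptor kinases 7 were tested. Of these, 6 were higher and 0 lower at 8 h of LPS (17% and 17.2% of all genes). Ifngr2, Ifnar2, Jak2 and Ifnar1, which encode receptor chains and a receptor kinase, rose by 1.03, 0.89, 1.20 and 0.68 on the log2 scale. Ifnb1, the interferon beta gene, did not pass the filter. It had 7 and 6 counts in p53KO cells and 1 in WT cells at 3 h of LPS, 0 and 1 in p53KO cells and 0 in WT cells at 8 h, and 0 in all 9 libraries at 0 h. Of 11 class II genes 4 were tested, and Cd74 (log2 3.27, 4.83 CPM at 8 h and 0.498 CPM at 0 h) and H2-Ab1 (1.11 and 0.180 CPM) were higher at 8 h of LPS, that is 2 of 4 against 17% of all genes. H2-Ab1 lay near the floor at 0 h, and its log2 change of 2.55 had an SE of 0.56. Ciita, the class II counterpart of Nlrc5, had 7 counts over all 45 libraries. Of 10 other NLR genes 6 were tested, with 3 higher and 2 lower (17% and 17.2% of all genes). Nod1 (1.63), Nlrp3 (2.67) and Nod2 (2.55) rose and Nlrx1 and Nlrc3 fell by 0.64 and 1.28 at 8 h of LPS.

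Peptide supply genes also responded differently to LPS between genotypes. Over the 4 later times of LPS, the change differed between p53KO and WT cells for 8 of 15 genes of peptide supply and loading. It did so for 4 of 27 regulators, against 2.66% of all genes. It did for 0 of 3 constitutive proteasome subunits and 0 of 7 genes of interferon receptors and their kinases, lists too small to set against that share. After IL-1b 1 of the 15 and 1 of the 27 were called (5.74% of all genes), and after TNF 0 of either list (0.462%). At 8 h of LPS alone 6 of the 15 had a higher log2 change in p53KO cells (0.708% of all genes), with a median difference of 0.73.

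Across the 45 libraries the log2 CPM of the 6 genes moved together, with Pearson's r between pairs from 0.84 (H2-K1 and Nlrc5) to 0.97 (H2-K1 and H2-Q4). These points share stimuli, lines and the LPS libraries at 8 h, so r is a description. The genes whose pattern was most like the mean of the 6 were Psmb10 (r = 0.968), Ifitm3 (0.965), Gbp2 (0.959), Psmb8 (0.959), Tor3a (0.959), H2-T22 (0.954), Tapbp (0.953) and Phf11d (0.95). Those most like Nlrc5 were H2-T23 (0.934), Gm49342 (0.93), Lgals3bp (0.929), Lgals9 (0.924) and Ifi35 (0.924).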

How the data were processed

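Poly(A) RNA of each culture was made into libraries with a TruSeq Stranded kit and sequenced with paired 50-base ends, per the labels' protocols. The deposited values are raw counts per Ensembl gene, 1 column per library. STAR, featureCounts, DESeq and mm9 appear, without versions, in the submitters' processing notes. The strand setting and annotation release are not given in the sources used here. The 5 categories that name no gene, with 24.7% of the counts, were left out.

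The 13851 genes that reached 1 CPM in 2 or more libraries were fitted together with edgeR 4.0.16 (R 4.3.3, quasi-likelihood, TMM factors 0.889 to 1.07, trended dispersion) with 30 group means. Each contrast had its own Benjamini-Hochberg adjustment over all genes, and calls are adjusted p under 0.05. WT groups had 1 library and were assumed to vary like p53KO groups. Log2 CPM used a prior count of 2. SEs are the log2 change divided by the root of F, and intervals are at 95%. Pairs of libraries were not identical: chi-square per degree of freedom was 1.35 to 3.79 between 0 h libraries of a line and 2.68 to 8.4 between p53KO pairs. The titles mark the p53KO libraries as KO-1 or KO-2, which were read here as lines that pair the libraries. Same-line libraries deviated together (r over 0.1) in 73 of 105 pairs of groups (median 0.191, lowest −0.169) and best with their own line in 15 of 15 groups. The fit had no block, and blocked values are given where they changed a call that was compared. The script was tested on simulated counts. Lists and members were chosen with earlier results of these data known. All 6 genes are named, and from each list up to 4 genes with the smallest and 2 with the largest adjusted p at 8 h of LPS, plus the genes most like the 6 (8) and Nlrc5 (5) by r; further list genes were named after their values were seen. Alternatives were DESeq2 1.42.0 size factors and Wald test, no filter, the line as a replicate block, p53KO libraries alone, other baselines and leaving out each p53KO library. Values of 1 gene of the regulator list are not reported here.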

Additional observations from a re-analysis of the deposited data

Results flagged for a closer look

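The change after LPS differed between p53KO and WT cells, by an interaction test over the 4 later times with edgeR adjustment over all genes, for H2-D1 (adjusted p 9.93e-06), B2m (0.000149), H2-Q4 (0.0021), H2-T23 (0.00365) and H2-K1 (0.0188). At 8 h the change in both p53KO lines exceeded that in the WT library for each of the 5. At 8 h alone the difference was not called for H2-Q4 or H2-K1. The H2-Q4 change went the other way at 1 h, at 0.61 in the WT library, −0.26 in KO-1 and −0.39 in KO-2 on the log2 scale. The WT side rests on 1 library per time. No group of the study had 4 to 10 samples, so no single library was screened for lying far from its group.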

How the results depend on the processing

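All 174 member values after LPS at 3 h, at 8 h and between them kept their direction and call under every alternative run, with adjusted p of at most 0.000208. Of 414 member counts under alternatives, 392 lay within 1.5 times the reported count. The 392 include counts of 0 that stayed at 0. The cause of the following moves was not tested. The 2 genes higher at 0.5 h of IL-1b became 1 without the filter, 4 with all p53KO libraries at 0 h as 1 baseline, and 0 to 3 on leaving out 1 library. The 2 at 1 h became 1 with DESeq2's Wald test and 0 on leaving out any 1 library. Between 3 and 8 h, leaving out 1 library gave 0 to 1 for IL-1b (0 reported) and 1 to 3 for TNF (2 reported). IL-1b against TNF (2 reported) gave 4 without the 0 h libraries and 1 to 2 on leaving out 1 library. The genotype count over line sums (5 higher, 0 lower) became 2 higher and 1 lower with the 0 h libraries alone, and 1 was lower with all 45 libraries. H2-T23 lost its call at 8 h of IL-1b with DESeq2's Wald test (adjusted p 0.0894), and B2m its genotype call at 3 h of LPS without the filter (adjusted p 0.109). B2m also lost its call at 1 h of IL-1b without the filter (log2 0.22, edgeR adjusted p 0.136). Without the filter H2-K1 (IL-1b against TNF, genotype at 8 h of LPS) and Nlrc5 (genotype after LPS) gained calls, as did H2-T23 at 8 h of TNF with 1 baseline of all p53KO libraries at 0 h.

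Nlrc5 was called higher in p53KO cells over line sums (log2 1.08), which hold the LPS libraries. With the 0 h libraries alone it differed by −0.052 between genotypes and was not called. Small uncalled values changed sign as well. On leaving out 1 library, Nlrc5 ranged over −0.26 to 0.57 at 3 h of IL-1b, −0.099 to 0.024 at 3 h of TNF and −0.57 to 0.59 at 8 h of TNF, and H2-T23 over −0.23 to 0.27 at 3 h of TNF. Nlrc5 rests on 8 to 15 counts in each 0 h library.

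Counts over all genes behind the percentages moved as well, here with the range over the alternatives in parentheses. Genes higher after IL-1b were 365 (70 to 1125) at 0.5 h, 385 (267 to 742) at 1 h and 1736 (1048 to 2421) at 8 h. For TNF they were 84 (59 to 170) at 0.5 h, 422 (283 to 874) at 1 h, 2003 (1140 to 2872) at 8 h and 1707 (881 to 1988) between 3 and 8 h. For LPS they were 60 (44 to 112) at 0.5 h and 387 (233 to 758) at 1 h. Genes differing between stimuli were 712 (508 to 2731) for LPS and TNF, 957 (731 to 2094) for LPS and IL-1b and 197 (100 to 2743) for IL-1b and TNF. Genes with a genotype difference in change were 368 (297 to 730) after LPS, 795 (412 to 1397) after IL-1b and 64 (47 to 302) after TNF. Over line sums 2728 (up to 4658) were higher and 2485 (up to 4312) lower.

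With the replicate block (the line), H2-K1 was called for IL-1b against TNF (adjusted p 0.00743) and for the genotype difference at 8 h of LPS (0.00744), and Nlrc5 for the genotype difference after LPS (0.0245). Among the calls that were compared, the block changed no other call of the 6 genes. Not every uncalled result of these genes was compared, so calls gained among the rest would not have been seen.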
